A study of Mus musculus with 18 samples.

Results

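Il9, Il3, Csf2 and Irf4 were followed across every library of 2 RNA-seq experiments on mouse CD4+ T cells lacking, or treated with an inhibitor of, the PHD oxygen sensors. The 4 genes are members of a table of 23558 gene symbols in all, and they were found by symbol in both deposited tables. They were chosen from measured values of these same libraries, among them the difference between PHD-deficient and control cells, so that difference is given below as a description with no test. It is not recorded whether TGF-b dose or drug values also entered the choice, and the p-values of those comparisons are to be read with that in mind.

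Experiment 1 compared tKO cells, which carry Egln1 fl/fl, Egln2 fl/fl and Egln3 fl/fl alleles (the genes of the PHD enzymes) with Cd4Cre, and WT cells, which carry Cd4Cre alone. Cd4Cre is a recombinase driven in developing T cells, so the deletion precedes the culture. Each genotype was grown with TGF-b at 0, 0.2 or 2 ng/ml, with 2 libraries per genotype and dose. Experiment 2 compared wildtype cells given 1 mM DMOG, an inhibitor of 2-oxoglutarate-dependent dioxygenases that include the PHD enzymes, and wildtype cells given vehicle, all at 2 ng/ml TGF-b, with 3 libraries each. All mice were C57BL/6, and all cultures started from naive splenic CD4+ T cells isolated by FACS, stimulated through CD3 and CD28 and harvested on day 4. The labels do not say whether libraries of a group came from separate animals. The 2 tKO series came from different mice, since Y chromosome transcripts were present in one and not in the other, as given below. For the other groups the spread between libraries, which is what the p-values measure, may be technical.

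IL-9 is the signature cytokine of Th9 cells, which arise from naive CD4+ T cells given TGF-b and IL-4, and it promotes the growth of mast cells. IL-3 and GM-CSF (the product of Csf2) are haematopoietic growth factors that activated T helper cells secrete; their receptors pair a private alpha chain with a shared beta chain, and their genes lie side by side. IRF4 is a transcription factor induced by T cell receptor signalling that acts with BATF and JUN proteins and is required for several helper fates, Th9 among them.

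The libraries carried T cell transcripts throughout. The 9 T cell markers summed to 2040 to 2398 FPKM (fragments per kilobase of transcript, scaled to mapped fragments) in tKO and 2576 to 3440 FPKM in WT, and to 1097 to 1409 FPKM with DMOG and 2238 to 2584 FPKM with vehicle, so their sum was lower in the groups in which the 4 genes were higher. The 12 mast cell and basophil markers summed to at most 3.05 FPKM in tKO and 4.06 FPKM in WT, with Fcer1a, Mcpt1, Mcpt4, Mcpt8, Tpsb2, Tpsab1 and Prss34 at 0 in every library of experiment 1. In experiment 2, 5 of these 12 markers were in the table, and they summed to 2.05 to 3.33 FPKM with DMOG and 1.42 to 2.01 FPKM with vehicle. The 6 markers of type 2 innate lymphoid cells, of which T cells also express Bcl11b, summed to 5.96 to 24.4 FPKM in tKO and 14.6 to 40.5 FPKM in WT, and to 11.0 to 14.5 FPKM with DMOG and 26.3 to 31.2 FPKM with vehicle. B cell markers summed to 16.5 to 86.6 FPKM in tKO and 14.9 to 64.1 FPKM in WT, and to 0.936 to 1.31 FPKM with DMOG and 7.62 to 12.4 FPKM with vehicle. Myeloid markers reached at most 1.60 FPKM in tKO and 8.49 FPKM in WT, and ran from 0.139 to 0.344 FPKM with DMOG and from 7.78 to 7.93 FPKM with vehicle. Markers of CD8 T cells and NK cells summed to 8.00 to 19.0 FPKM in tKO and 4.75 to 14.7 FPKM in WT, and to 8.61 to 13.3 FPKM with DMOG and 13.2 to 16.8 FPKM with vehicle. Those of gamma-delta and NKT cells reached 1.41 FPKM at most, in WT. The part of these differences in the results below was not tested, and in bulk RNA fewer cells that express a gene and less of its RNA per cell cannot be told apart.

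Some libraries stood apart. The 3 libraries of tKO replicate 1 carried Y chromosome transcripts (Ddx3y, Uty, Kdm5d and Eif2s3y summed to 60.5 to 67.6 FPKM, against at most 0.00800 FPKM in the other 9 libraries of experiment 1), so results on tKO are also given without them. The FPKM summed over all symbols was lowest of experiment 1 in tKO at 2 ng/ml, at 535756 and 521172. It ran from 653168 to 834683 in tKO at the lower doses and from 593516 to 638919 in WT. The main fit did not rescale these totals, and their part in the changes with dose was not tested. Absolute depth is unknown. Relative numbers of reads per FPKM ran from 0.532 to 1.21 in experiment 1, lowest in tKO at 0.2 ng/ml replicate 2, and from 0.804 to 1.31 in experiment 2.

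The sequences before the starts of the 4 genes are shown since all 4 genes were higher in both the tKO and the DMOG libraries. They are the 250 bases upstream of the RefSeq start in GRCm38.p6, written 5′ to 3′ on the strand of the gene, with the motif matches in capitals. The windows are chr13:56482258-56482507 on the minus strand for Il9, chr11:54267280-54267529 on the minus strand for Il3, chr11:54249900-54250149 on the minus strand for Csf2, and chr13:30748983-30749232 on the plus strand for Irf4.
Il9: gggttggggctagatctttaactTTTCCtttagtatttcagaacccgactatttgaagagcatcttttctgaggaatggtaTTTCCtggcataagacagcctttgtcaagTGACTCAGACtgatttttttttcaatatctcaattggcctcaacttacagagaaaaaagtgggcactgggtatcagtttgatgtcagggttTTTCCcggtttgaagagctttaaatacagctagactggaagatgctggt
Il3: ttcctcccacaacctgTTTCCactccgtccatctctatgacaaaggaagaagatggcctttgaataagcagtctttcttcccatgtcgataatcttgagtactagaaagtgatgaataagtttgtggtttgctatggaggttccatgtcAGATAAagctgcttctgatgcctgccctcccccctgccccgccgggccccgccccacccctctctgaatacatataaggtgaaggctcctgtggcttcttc
Csf2: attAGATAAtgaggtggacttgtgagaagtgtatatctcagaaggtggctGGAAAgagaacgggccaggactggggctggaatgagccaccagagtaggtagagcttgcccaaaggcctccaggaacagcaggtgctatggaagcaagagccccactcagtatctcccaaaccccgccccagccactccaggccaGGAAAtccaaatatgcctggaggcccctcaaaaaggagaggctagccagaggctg
Irf4: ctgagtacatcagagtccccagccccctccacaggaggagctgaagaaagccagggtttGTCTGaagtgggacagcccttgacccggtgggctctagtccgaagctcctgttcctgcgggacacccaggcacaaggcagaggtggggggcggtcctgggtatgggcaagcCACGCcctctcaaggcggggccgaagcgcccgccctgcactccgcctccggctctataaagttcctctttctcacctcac
Motifs were sought by their letters on both strands, and each share below is of all 32851 RefSeq windows of this length. The Il9 window held 1 AP-1 match (TGANTCA, in 6.75% of windows), whose last bases overlap a SMAD match (CAGAC, in 42.2%), and 3 matches to the NFAT core GGAAA (in 55.6%). The Il3 window held 1 NFAT match and 1 GATA match (AGATAA or TGATAA, in 16.6%), and the Csf2 window held 2 NFAT matches and 1 GATA match. The Irf4 window held 1 SMAD match and 1 match to the HIF core (ACGTG or GCGTG, in 38.6%), the only HIF core match in the 4 windows. None of the 4 held an IRF element of 2 GAAA units with 2 free bases between them, which 2.98% of windows hold. The first base of the Csf2 transcript in GENCODE lies 232 bp downstream of the RefSeq start used here, so its window lies that much farther upstream of the GENCODE start. For Il9, Il3 and the longest Irf4 transcripts the starts differ by 11, 2 and 7 bp. These matches are descriptions of letters and not measurements of binding.

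Il9 had the largest level difference between genotypes of the 4 genes. Without TGF-b, tKO libraries had 207 and 717 FPKM, against 0.0801 FPKM in one WT library and a listed 0 in the other. At 0.2 ng/ml the values were 304 and 820 FPKM in tKO and 1.70 and 0.368 FPKM in WT. At 2 ng/ml they were 88.6 and 158 FPKM in tKO and 1.19 and 2.67 FPKM in WT. The lowest tKO library was thus far above the highest WT library at every dose. On the log2(FPKM + 1) scale, on which a change in a gene near 0 looks smaller than it is, the difference was 7.32 ± 0.32 (SE) averaged over the doses, and 8.54 ± 0.56, 8.03 ± 0.56 and 5.40 ± 0.56 at 0, 0.2 and 2 ng/ml. Of 10354 genes fitted, Il9 ranked 1 from the top over the doses, at 0 and at 0.2 ng/ml, and 2 at 2 ng/ml.

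Csf2 (GM-CSF) was at 137 and 211 FPKM in tKO without TGF-b, against 1.50 and 2.30 FPKM in WT. It was at 61.6 and 96.7 FPKM in tKO at 0.2 ng/ml, against 2.71 and 0.384 FPKM in WT. It was at 21.3 and 14.9 FPKM in tKO at 2 ng/ml, against 1.63 and 1.24 FPKM in WT. The tKO and WT libraries did not overlap at any dose, and the tKO groups themselves fell into 3 separate levels by dose. The difference on the log2 scale was 4.65 ± 0.23 over the doses, rank 6 from the top, and 5.90 ± 0.41, 5.11 ± 0.41 and 2.96 ± 0.41 at 0, 0.2 and 2 ng/ml.

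Il3 was lower than Csf2 in every library of experiment 1. It was at 17.5 and 37.5 FPKM in tKO without TGF-b and at 12.3 and 19.1 FPKM in tKO at 0.2 ng/ml. In WT, replicate 1 had 0.760 FPKM without TGF-b, 0.505 FPKM at 0.2 ng/ml and 0.947 FPKM at 2 ng/ml, while replicate 2 was listed at 0 at all 3 doses. At 2 ng/ml tKO had 6.40 FPKM in replicate 1 and 0.592 FPKM in replicate 2, so there the groups overlapped. An exact 0 in such a table can be a failed estimate, and differences against it are uncertain. The log2 difference was 3.12 ± 0.36 over the doses (rank 43), 4.33 ± 0.62 and 3.73 ± 0.62 at 0 and 0.2 ng/ml, and 1.30 ± 0.62 at 2 ng/ml.

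Irf4 was well expressed in both genotypes and its difference was the smallest of the 4. It was at 167 and 202 FPKM in tKO and 65.4 and 64.9 FPKM in WT without TGF-b, 160 and 202 FPKM in tKO and 54.6 and 52.8 FPKM in WT at 0.2 ng/ml, and 127 and 111 FPKM in tKO and 61.3 and 42.0 FPKM in WT at 2 ng/ml. No tKO library overlapped the WT libraries. The mean of tKO was 2.83, 3.37 and 2.30 times that of WT at 0, 0.2 and 2 ng/ml, and the log2 difference over the doses was 1.47 ± 0.11 (rank 293). The Irf4 value of experiment 1 is the sum of 3 table entries for the same locus and that of Il3 the sum of 2, and Irf4 and Il3 have 1 entry each in experiment 2.

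Of all genes fitted, 27.2% passed an adjusted p of 0.05 for tKO minus WT over the doses (limma, Benjamini-Hochberg over the 10354 genes), 13.9% higher and 13.3% lower, and 9.64%, 15.5% and 16.0% passed at 0, 0.2 and 2 ng/ml. Nothing is read from this for the 4 genes, since this contrast entered their choice. Without the 3 libraries of tKO replicate 1 the differences over the doses were 7.99 for Il9, 4.78 for Csf2, 3.03 for Il3 and 1.54 for Irf4, and without those of tKO replicate 2 they were 6.65, 4.52, 3.21 and 1.40 in the same order.

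**Figure D1:**
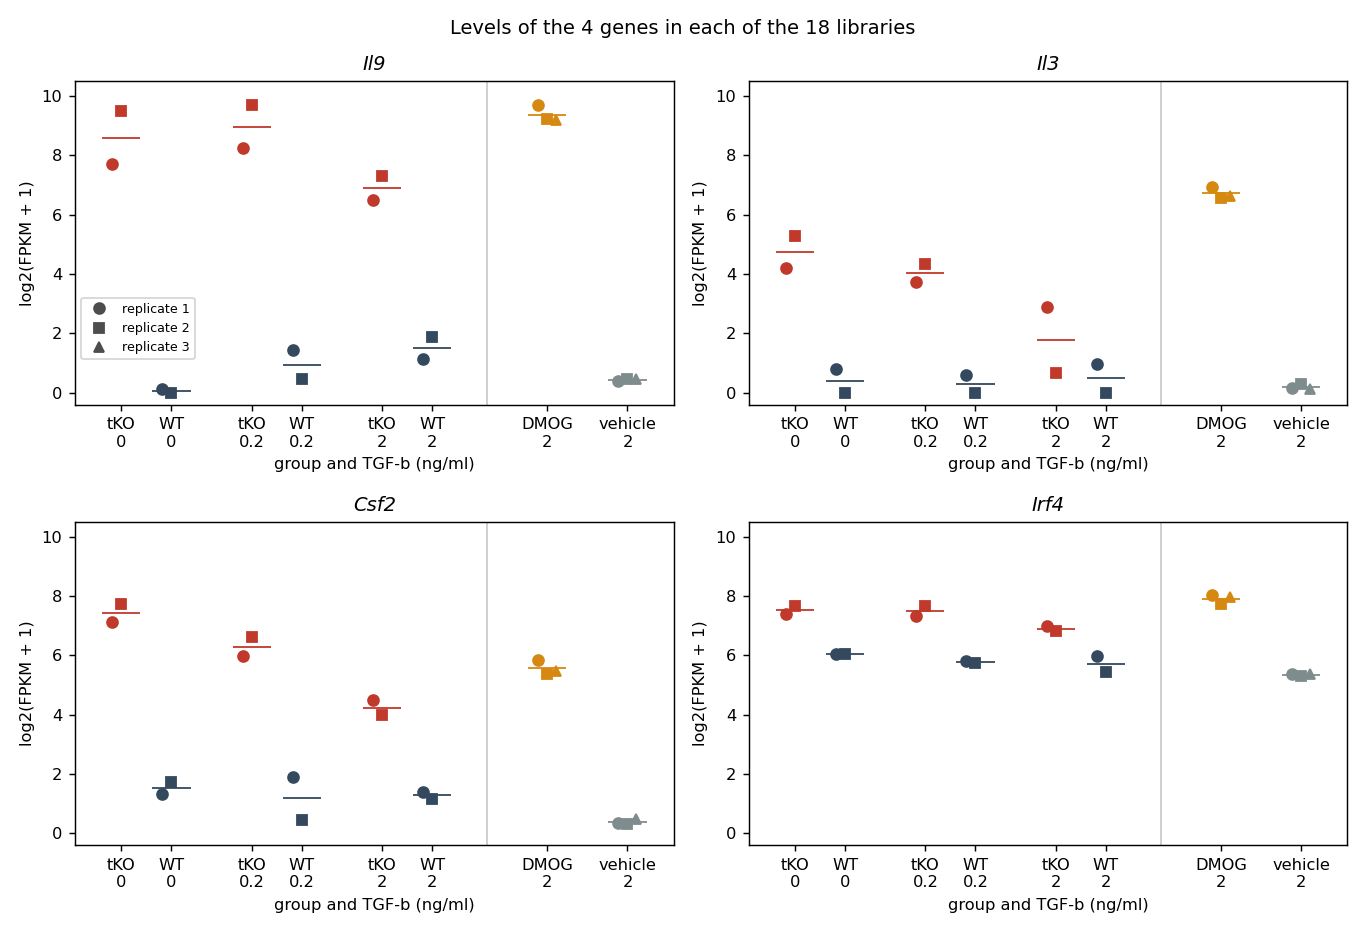
Level of each gene in each of the 18 libraries, as log2(FPKM + 1) on the vertical axis, by group and TGF-b dose on the horizontal axis; each point is a library, its shape the replicate number, and each line a group mean. In experiment 1 (left of the grey line) tKO points lie above WT points for Il9, Csf2 and Irf4 at every dose and overlap for Il3 at 2 ng/ml, and in experiment 2 (right) DMOG points lie above vehicle points for all 4 genes.

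Csf2, Il3 and Irf4 passed as lower in tKO cells at 2 ng/ml TGF-b than without it, Irf4 only near the threshold. Csf2 fell by 3.18 ± 0.41 on the log2 scale at 2 against 0 ng/ml (limma, adjusted p = 0.000263), with means of 18.1 ± 4.53 FPKM at 2 ng/ml and 174 ± 52.4 FPKM without TGF-b (SD, n = 2 each). Il3 fell by 2.96 ± 0.62 (limma, adjusted p = 0.00624), with means of 3.49 ± 4.11 FPKM at 2 ng/ml and 27.5 ± 14.2 FPKM without TGF-b. Irf4 fell by 0.63 ± 0.20 (limma, adjusted p = 0.0439), with means of 119 ± 11.5 FPKM at 2 ng/ml and 184 ± 25.3 FPKM without TGF-b. So 3 of the 4 genes passed, all lower, where 18.0% of all genes passed and 10.4% passed as lower. For Il9, with 123 ± 49.2 FPKM at 2 ng/ml and 462 ± 361 FPKM without TGF-b, the change of -1.69 ± 0.56 did not pass (limma, adjusted p = 0.0520). The libraries of a labelled tKO series deviated together only weakly where the pair included 2 ng/ml (correlations of 0.127 and 0.110). Libraries of different genotype that share a replicate number reached 0.255, so these correlations alone leave the pairing uncertain. Y chromosome transcripts did follow the tKO replicate number at every dose, so the libraries of a tKO series share at least the sex of the mouse. The main fit does not use this pairing. With the series as a block Il9 passed (limma, adjusted p = 0.00255). It also passed without tKO at 0 ng/ml replicate 1 (-2.59, adjusted p = 0.00799), tKO at 0.2 ng/ml replicate 1 (adjusted p = 0.0273) or tKO at 0.2 ng/ml replicate 2 (adjusted p = 0.0255), and without the 3 libraries of tKO replicate 1 (-2.17, adjusted p = 0.0216). The change shrank to -0.80 (adjusted p = 0.486) without tKO at 0 ng/ml replicate 2, and to -1.22 (adjusted p = 0.252) without the 3 libraries of tKO replicate 2.

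These calls rested unequally on single libraries, and that of Irf4 also on the summing of its entries. The Irf4 call was lost with the highest entry per symbol, with no filter on low values, and with no trend and robust moderation, as given at the end. Csf2 passed whichever single library was left out, and did not pass without the 3 libraries of tKO replicate 2 (-2.63, limma adjusted p = 0.0591), whereas without those of tKO replicate 1 it did (-3.74, adjusted p = 0.00515). Il3 did not pass without tKO at 0 ng/ml replicate 2 (-2.43, adjusted p = 0.0876) or without tKO at 2 ng/ml replicate 2 (-1.85, adjusted p = 0.0804), with a pseudocount of 0.1 FPKM (-3.60, adjusted p = 0.0871) or with no filter on low values (adjusted p = 0.0522). It had -1.32 (adjusted p = 0.284) without the 3 libraries of tKO replicate 2 and -4.60 (adjusted p = 0.00323) without those of tKO replicate 1. Irf4 did not pass with quantile normalization (-0.27, adjusted p = 0.334), with median ratio scaling (-0.58, adjusted p = 0.0583), or without tKO at 0 ng/ml replicate 2 (-0.49, adjusted p = 0.286), tKO at 2 ng/ml replicate 1 (-0.73, adjusted p = 0.108) or tKO at 2 ng/ml replicate 2 (-0.53, adjusted p = 0.245). Leaving out any 1 of the WT libraries at 0 or 0.2 ng/ml, which add only to the shared spread, gave adjusted p between 0.0638 and 0.0664 for Irf4. It had -0.39 (adjusted p = 0.460) without the 3 libraries of tKO replicate 2 and -0.86 (adjusted p = 0.0455) without those of tKO replicate 1.

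The step between the upper doses was tested next. At 2 against 0.2 ng/ml Csf2 changed by -2.05 ± 0.41 (limma, adjusted p = 0.00900), Il9 by -2.07 ± 0.56 (adjusted p = 0.0360) and Il3 by -2.25 ± 0.62 (adjusted p = 0.0393). So 3 of 4 passed, all lower, where 9.57% of all genes passed in either direction. Calls in this step ran mostly downward over all genes, with 770 lower and 221 higher of 10354. Irf4 changed by -0.60 ± 0.20, which did not pass (adjusted p = 0.0783; 0.0423 with the series block). Each of the 3 calls was lost without tKO at 0.2 ng/ml replicate 2, which had the lowest relative depth, where Csf2 changed by -1.73 (adjusted p = 0.0935), Il9 by -1.35 (adjusted p = 0.339) and Il3 by -1.95 (adjusted p = 0.255). Each was also lost without tKO at 2 ng/ml replicate 2 (-1.81 for Csf2, -2.48 for Il9 and -1.14 for Il3, with adjusted p = 0.116, 0.116 and 0.348 in that order). Those of Csf2 and Il9 were lost without tKO at 2 ng/ml replicate 1 (-2.30 and -1.65, adjusted p = 0.0501 and 0.248), that of Il9 at the margin without WT at 2 ng/ml replicate 2, and that of Il3 without WT at 0.2 ng/ml replicate 1 or 2 (adjusted p = 0.0617 and 0.0557). All 3 were lost without the 3 libraries of tKO replicate 2 (-1.49 for Csf2, -1.77 for Il9 and -0.84 for Il3), with no filter on low values (adjusted p = 0.0689, 0.168 and 0.165 in that order) and with the spread of the compared groups alone (adjusted p = 0.133, 0.135 and 0.167). Irf4 passed without tKO at 0.2 ng/ml replicate 1 (-0.76, adjusted p = 0.0251). At 0.2 against 0 ng/ml limma passed 0 of the 4 at the adjusted threshold, which 2.48% of all genes passed. By an unadjusted p under 0.05, which 15.6% of all genes had, 1 of the 4 passed. That 1 was Csf2, at -1.13 ± 0.41 (adjusted p = 0.186), and it was lower at 0.2 than at 0 ng/ml in both tKO series, as was Il3. The sizes of the 2 steps were not compared by a test. Il9 changed by 0.37 ± 0.56 over the same step (adjusted p = 0.811).

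The libraries of tKO replicate 2 had more of each gene than those of replicate 1 without TGF-b and at 0.2 ng/ml. The ratio of replicate 2 to replicate 1 was 3.46 and 2.69 for Il9, 2.15 and 1.55 for Il3, 1.54 and 1.57 for Csf2, and 1.21 and 1.26 for Irf4 at 0 and 0.2 ng/ml. At 2 ng/ml it was 1.79 for Il9, 0.0925 for Il3, 0.699 for Csf2 and 0.872 for Irf4. The gap between replicates was thus widest for Il9 at the lower doses and for Il3 at the top dose. The FPKM summed over all symbols also differed in these directions. Replicate 2 had 737423 against 653168 in replicate 1 at 0 ng/ml, and 834683 against 674234 at 0.2 ng/ml. At 2 ng/ml it had 521172 against 535756. The ratios were not corrected for these totals, whose part in them, and in those of Irf4 above all, was not tested.

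**Figure D2:**
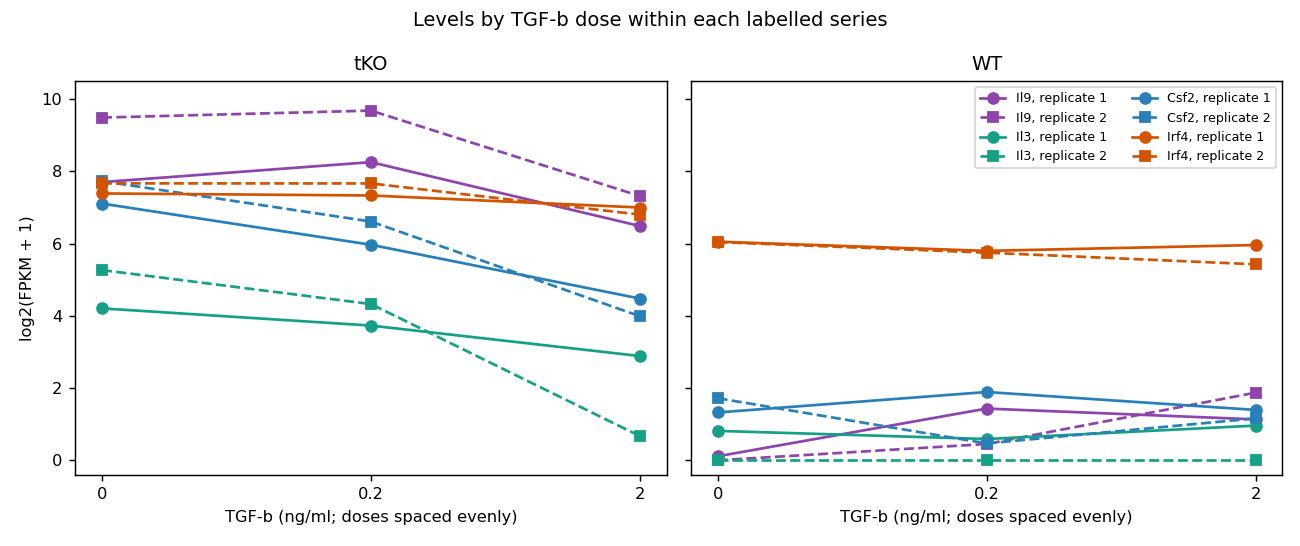
Level of each gene as log2(FPKM + 1) against TGF-b dose, with tKO on the left and WT on the right; lines join the libraries with the same replicate number (replicate 1 solid, replicate 2 dashed). In tKO both lines of Csf2 fall at each step and both lines of Il9 peak at 0.2 ng/ml, while in WT Il9, Il3 and Csf2 stay below 2 on this scale.

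In WT cells limma passed 0 of the 4 genes for any dose step at the adjusted threshold, which 15.7% of all genes passed at 2 against 0, 1.59% at 0.2 against 0 and 0.435% at 2 against 0.2 ng/ml. Il9, Il3 and Csf2 were at most 2.71 FPKM in WT, where the log2(FPKM + 1) scale leaves little room for a fall. The count of 0 is therefore not read as a lack of response. By an unadjusted p under 0.05, 1 of the 4 passed at 2 against 0 ng/ml, as did 29.4% of all genes. By the same limit 0 of the 4 passed at 0.2 against 0 or at 2 against 0.2 ng/ml, where 11.2% and 12.9% of all genes did. Il9 gave the smallest p, with 1.45 ± 0.56 at 2 against 0 ng/ml (adjusted p = 0.0997). The WT Il9 libraries at 2 ng/ml, at 1.19 and 2.67 FPKM, lay above those without TGF-b, at 0.0801 and 0 FPKM. With a pseudocount of 0.1 or 0.5 FPKM in place of 1 the Il9 change was 3.82 (adjusted p = 0.00360) or 2.10 (adjusted p = 0.0315), and with the spread taken from the compared groups alone the adjusted p was 0.0268. Without tKO at 0 ng/ml replicate 1, which adds only to the shared spread, it was 0.0462. The Il9 change ran upward in WT and downward in tKO between the same doses. Csf2, at -0.24 ± 0.41, Il3, at 0.07 ± 0.62, and Irf4, at -0.35 ± 0.20, did not pass in WT (adjusted p = 0.733, 0.956 and 0.255 in that order).

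The change of Csf2 with TGF-b on the log2 scale differed between the genotypes, but from unlike starting levels. Csf2 in WT was at 1.50 and 2.30 FPKM without TGF-b, so it had little room to fall. Il9 and Il3 in WT were also near 0. The test thus cannot tell a different response from the difference in level, which entered the choice of the genes. The Csf2 change at 2 against 0 ng/ml in tKO minus that in WT was -2.94 ± 0.57 (limma, adjusted p = 0.0175). For Il9 it was -3.14 ± 0.79 (adjusted p = 0.0518), for Il3 -3.03 ± 0.88 (adjusted p = 0.0855) and for Irf4 -0.27 ± 0.28 (adjusted p = 0.640). So 1 of 4 passed, where 2.97% of all genes did. The Csf2 difference did not pass when 1 of 6 libraries was left out, namely WT at 0 ng/ml replicate 1 (-2.74, adjusted p = 0.0887), WT at 2 ng/ml replicate 1 (-2.82, 0.0641) or 2 (-3.06, 0.0544), tKO at 0 ng/ml replicate 2 (-2.63, 0.0973), and tKO at 2 ng/ml replicate 1 (-3.18, 0.0533) or 2 (-2.70, 0.103). It was also lost with a pseudocount of 0.1 FPKM (-2.88, adjusted p = 0.0998), with no filter on low values (adjusted p = 0.0991) and without the 3 libraries of tKO replicate 2 (-2.39, adjusted p = 0.224), but not without those of tKO replicate 1 (-3.49, adjusted p = 0.0293). Il9 passed with the labelled series as a block (adjusted p = 0.00195), with quantile normalization (-2.68, adjusted p = 0.0431), and without tKO at 0 ng/ml replicate 1 (-4.04, adjusted p = 0.0137), tKO at 0.2 ng/ml replicate 1 (adjusted p = 0.0213) or tKO at 0.2 ng/ml replicate 2 (adjusted p = 0.0193). Without tKO at 0 ng/ml replicate 2 the Il9 value was -2.25 (adjusted p = 0.222), without the 3 libraries of tKO replicate 2 -2.66 (adjusted p = 0.143), and without those of tKO replicate 1 -3.62 (adjusted p = 0.0160). Il3 passed with the series block (adjusted p = 0.0421) and without tKO at 2 ng/ml replicate 1 (-4.14, adjusted p = 0.0306), and had -4.67 (adjusted p = 0.0143) without the 3 libraries of tKO replicate 1 and -1.39 (adjusted p = 0.488) without those of tKO replicate 2. It had -1.92 (adjusted p = 0.284) without tKO at 2 ng/ml replicate 2. For the step to 0.2 ng/ml limma passed 0 of the 4 responses at the adjusted threshold, which 0.435% of all genes passed. By an unadjusted p under 0.05 also 0 of the 4 passed, where 7.79% of all genes did.

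DMOG raised all 4 genes in wildtype cells. Il9 had 826, 598 and 583 FPKM with DMOG, against 0.302, 0.371 and 0.387 FPKM with vehicle. Il3 had 122, 94.1 and 98.6 FPKM with DMOG, against 0.127, 0.234 and 0.0978 FPKM with vehicle. Csf2 had 56.8, 40.1 and 43.1 FPKM with DMOG, against 0.261, 0.248 and 0.402 FPKM with vehicle. The 3 cytokine genes were therefore near 0 in each vehicle library and abundant in each DMOG library. They met the filter of a mean of 1 FPKM only through the DMOG libraries in which they were high. Their p-values below are thus no independent support, and the added 1 FPKM narrows the spread of the vehicle values. Irf4 had 258, 210 and 247 FPKM with DMOG, against 40.8, 38.2 and 40.1 FPKM with vehicle, a mean 6.00 times as high. The log2 differences were 8.93 ± 0.13 for Il9 (limma, adjusted p = 7.54e-18), 6.51 ± 0.12 for Il3 (adjusted p = 5.18e-17), 5.18 ± 0.13 for Csf2 (adjusted p = 2.04e-15) and 2.55 ± 0.11 for Irf4 (adjusted p = 3.27e-12). They ranked 1, 4, 14 and 119 from the top of 9884 genes. Since 60.8% of all genes passed in this comparison, 27.7% higher and 33.2% lower, that 4 of 4 passed says little, and the ranks and sizes place them. All 4 calls held without any 1 of the 6 libraries.

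At 2 ng/ml TGF-b, the dose that the 2 experiments share, the tKO minus WT differences were 5.40 ± 0.56 for Il9, 1.30 ± 0.62 for Il3, 2.96 ± 0.41 for Csf2 and 1.21 ± 0.20 for Irf4, each numerically below the DMOG value above. The tables were normalized separately, the cells and instruments differed, and the gap between the experiments was not tested.

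**Figure D3:**
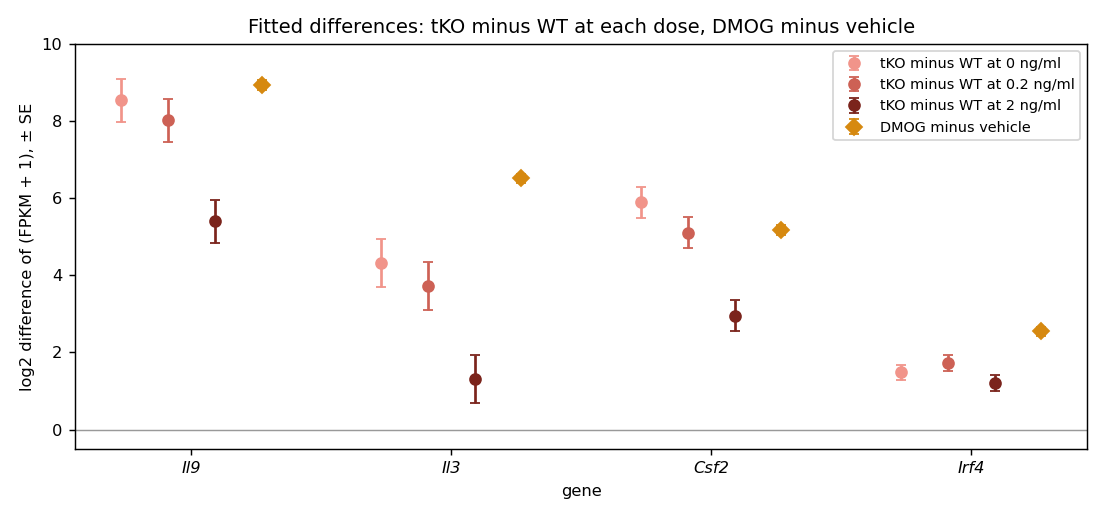
Difference of log2(FPKM + 1) for each gene, tKO minus WT at 0, 0.2 and 2 ng/ml TGF-b (circles, light to dark) and DMOG minus vehicle at 2 ng/ml (diamonds); bars are ± SE of the fit. Among the tKO differences that at 2 ng/ml is the smallest for each gene, with 1.21 for Irf4 and 1.30 for Il3 the lowest, and the DMOG differences run from 2.55 for Irf4 to 8.93 for Il9.

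The balance of the cytokine transcripts differed between the experiments. Within a library, the Il3 level divided by the Csf2 level was 2.14, 2.34 and 2.29 with DMOG. In tKO it was 0.128 and 0.178 at 0, 0.199 and 0.197 at 0.2, and 0.301 and 0.0397 at 2 ng/ml. Il3 was thus the more abundant of the pair in every DMOG library and the less abundant in every tKO library, on a scale that accounts for transcript length. The Il9 level divided by the Csf2 level was 14.5, 14.9 and 13.5 with DMOG, and ran from 1.51 to 10.6 in tKO. These ratios compare separately normalized tables, and the difference was not tested.

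Among the receptors for these cytokines, the shared beta chain was not detected at an appreciable level. Csf2rb was at 0 to 0.521 FPKM in tKO and 0 to 0.229 FPKM in WT, and at most 0.00555 FPKM with DMOG and 0.0119 FPKM with vehicle (it and Il9r are named for their roles, after their values were seen). Il9r, the private chain of the IL-9 receptor, was at 0.0348 to 1.69 FPKM in tKO and 0.157 to 2.16 FPKM in WT, and at 0.0752 to 0.251 FPKM with DMOG and 0.948 to 1.37 FPKM with vehicle. Of the 9 receptor, JAK and STAT genes on the list that were fitted in experiment 1, 4 rose over the doses in tKO, 1 fell and 4 did not pass, and their median log2 difference was 0.51 against -0.02 for all genes. The kinase gene Jak2 rose by 1.07 ± 0.11 (limma, adjusted p = 1.18e-05), Stat5a, which acts downstream of both IL-3 and GM-CSF, by 1.04 ± 0.12 and Stat3 by 0.95, while Jak1 fell by 0.54 (adjusted p = 0.0519 without the 3 libraries of tKO replicate 2). With DMOG 4 of 10 rose and 3 fell. Over all genes 13.9% rose and 13.3% fell in tKO, and 27.7% rose and 33.2% fell with DMOG, so the DMOG counts say little. Stat3 rose by 1.35 and Jak2 by 1.10, and Il3ra, the IL-3 receptor alpha chain, had -0.85.

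Of 30 fitted genes listed as regulators of Il9 and Csf2 transcription, 11 rose over the doses in tKO, 3 fell and 16 did not pass, with a median of 0.18. Among all genes 13.9% rose and 13.3% fell. Batf3, an AP-1 factor that pairs with JUN proteins and IRF4, was at 64.4 to 79.1 FPKM in tKO and 1.35 to 1.42 FPKM in WT without TGF-b, and at 1.14 to 1.26 FPKM in tKO and a listed 0 in both WT libraries at 2 ng/ml. Bhlhe40, which T helper cells need for GM-CSF production, was at 165 to 395 FPKM in tKO and 40.1 to 73.0 FPKM in WT across the doses (log2 difference 2.54 ± 0.17, limma adjusted p = 1.58e-07). Rbpj, the DNA-binding partner of Notch, rose by 1.55 ± 0.10, and Tbx21, the Th1 master regulator, by 3.77 ± 0.26. At 2 against 0 ng/ml Batf3 fell by 5.04 on the log2 scale (limma, adjusted p = 2.79e-06), whereas Bhlhe40 (-0.17), Tbx21 (-1.14) and Rbpj did not pass.

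With DMOG 14 of the 30 regulators rose, 10 fell and 6 did not pass, with a median of 0.18 against -0.03 for all genes. Of all genes 27.7% rose and 33.2% fell with DMOG. Tbx21 rose by 5.60 and Batf3 by 3.99, with 13.6 to 17.2 FPKM of Batf3 with DMOG against at most 0.0583 FPKM with vehicle. Bcl6, the regulator of follicular helper cells, had -2.88. Between 0 and 2 ng/ml in tKO 6 of the 30 rose and 3 fell, where 18.0% of all genes passed and 10.4% fell. Those that fell were Batf3, Batf (-1.81) and Gata3 (-0.77), while Foxp3 rose by 4.89. The Gata3 fall did not pass with quantile normalization or without tKO at 0 ng/ml replicate 1, tKO at 2 ng/ml replicate 1 or tKO at 2 ng/ml replicate 2, with adjusted p up to 0.116.

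**Figure D4:**
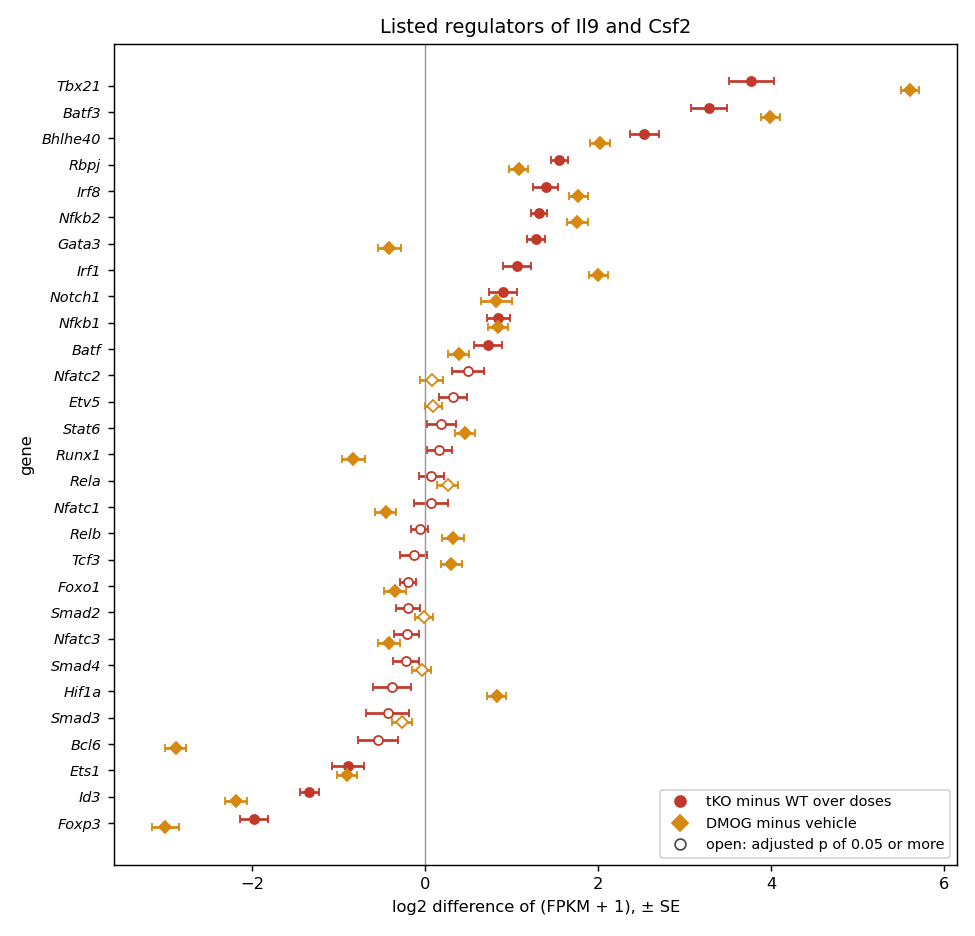
Log2 difference of (FPKM + 1) with ± SE for 29 of the 30 fitted regulators of Il9 and Csf2, tKO minus WT over the doses (circles) and DMOG minus vehicle (diamonds), open where the adjusted p was 0.05 or more. Tbx21, Batf3 and Bhlhe40 have the largest differences in tKO, and Gata3 was higher in tKO (1.28) but lower with DMOG (-0.41), a call lost without vehicle replicate 1 or DMOG replicate 2.

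Of 16 fitted cytokine and costimulatory receptors, listed for signals that may raise or lower Il9, 6 rose and 6 fell over the doses in tKO, with a median of 0.13. Il21r rose by 1.62 and Il10ra by 1.16, and Ifngr1 fell by 1.62 and Il6ra by 1.24. With DMOG 5 of 17 rose and 9 fell, with a median of -0.90. Tgfbr1 and Tgfbr2, the chains of the TGF-b receptor, had -1.88 and -2.04 with DMOG. In tKO Tgfbr2, at 4.90 to 32.9 FPKM in tKO and 13.1 to 38.6 FPKM in WT, fell by 0.76 over the doses, and Tgfbr1 did not pass (0.13). With TGF-b at 2 ng/ml, 5 of the 16 rose in tKO relative to no TGF-b and 2 fell, where 18.0% of all genes passed. The shares of all genes were 13.9% higher and 13.3% lower in tKO over the doses, and 27.7% higher and 33.2% lower with DMOG.

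Irf4 was 1 of several interferon regulatory factors that differed. Of the 7 others fitted, 4 rose in tKO over the doses and 1 fell, with a median of 0.79. Irf8 was at 187 to 354 FPKM in tKO and 71.9 to 145 FPKM in WT (1.40 ± 0.14, limma adjusted p = 8.08e-06), Irf5 rose by 1.13 and Irf1 by 1.07, and Irf2 fell by 0.59. With DMOG 3 of 8 rose (Irf1 by 2.00, Irf8 by 1.77 and Irf5 by 1.30) and 2 fell, with a median of 0.10. All genes gave 13.9% higher and 13.3% lower in tKO, and 27.7% higher and 33.2% lower with DMOG. At 2 against 0 ng/ml in tKO 18.0% of all genes passed. At 2 against 0 ng/ml in tKO 1 of the 7, Irf5, rose by 0.97 and 0 fell by limma, and the Irf5 call was lost without tKO at 0 ng/ml replicate 2, tKO at 2 ng/ml replicate 1 or tKO at 2 ng/ml replicate 2 (adjusted p up to 0.166).

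Of 18 fitted partners and targets of IRF4, 6 rose over the doses in tKO and 3 fell, with a median of 0.48. Besides Batf3, Junb was at 490 to 630 FPKM in tKO and 96.9 to 330 FPKM in WT (1.47 ± 0.12), Fosl2 rose by 1.05 and Stat3 by 0.95. With DMOG 6 of 18 rose and 7 fell, with a median of 0.07. That is near the 27.7% of all genes that rose and 33.2% that fell, so the counts say little. Junb (2.09), Bcl6 (-2.88) and Maf (-2.52) were among those that passed. At 2 against 0 ng/ml in tKO 5 of 18 rose and 3 fell, with Maf higher by 2.66 and Jun by 2.42. There 18.0% of all genes passed, and over the doses 13.9% rose and 13.3% fell in tKO.

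Other T cell cytokines moved widely in the same libraries. Of 21 fitted, 15 rose in tKO over the doses and 2 fell, with a median of 1.27, and with DMOG 14 of 19 rose and 4 fell, with a median of 0.98. The shares of all genes were 13.9% and 13.3% in tKO and 27.7% and 33.2% with DMOG, higher and lower in turn. Il1a was at 5.94 to 69.1 FPKM in tKO and 0 to 3.59 FPKM in WT, and at 53.2 to 56.6 FPKM with DMOG and 0.403 to 0.535 FPKM with vehicle. Il24, Tnfsf8 and Tnfsf11 also had the smallest p in tKO, with 3.41, 1.55 and 1.23. In tKO at 2 against 0 ng/ml 9 of the 21 fell, against 4 that rose, with a median of -0.72, where 10.4% of all genes fell. The largest of these falls were those of Il24 (-5.53), Il4 (-5.40), Il5 (-4.84) and Il13 (-3.56), in which libraries listed at 0 make the size uncertain. The list was made with earlier results of these libraries known, and its direction is not independent evidence.

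Of 10 fitted factors that destabilise or protect the AU-rich mRNAs of GM-CSF and IL-3, 0 rose and 1 fell over the doses in tKO by limma, with a median of 0.01. The one that fell was Zfp36l1, an mRNA decay factor (-0.57 ± 0.11, adjusted p = 0.00127), at 34.2 to 86.2 FPKM in tKO and 72.5 to 142 FPKM in WT. With DMOG Zfp36l1 was at 15.2 to 20.4 FPKM against 86.4 to 94.6 FPKM with vehicle (-2.22 ± 0.12), and of the 10 factors 2 rose and 5 fell, with a median of -0.24. Of all genes 27.7% rose and 33.2% fell with DMOG, and 13.9% and 13.3% in tKO over the doses. In tKO at 2 against 0 ng/ml 18.0% passed. At 2 against 0 ng/ml in tKO Zfp36l1 rose by 1.13, a call lost without the 3 libraries of tKO replicate 2 (adjusted p = 0.0680), and of the 10 factors 1 rose and 1 fell.

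The genes around the 4 were looked at next, within 250 kb in the mm9 coordinates of the table. Csf2 (chr11:54060771-54063401) and Il3 (chr11:54078586-54080781) lie 15185 bp apart. P4ha2, a collagen prolyl hydroxylase, 115602 bp from Csf2, was at 23.5 to 67.8 FPKM in tKO and at most 2.16 FPKM in WT (4.47 ± 0.19, limma adjusted p = 3.30e-09) and was also higher with DMOG (4.25 ± 0.18). Acsl6, the acyl-CoA synthetase gene on the other side of Il3, had -0.07 ± 0.36 in tKO, which did not pass (adjusted p = 0.907). With DMOG it rose by 1.20 ± 0.11. Pdlim4 was lower in both (-0.87 in tKO and -0.92 with DMOG), and Fnip1 passed in neither. The neighbourhood therefore held genes that rose, fell and did not pass. On the wider list of 9 fitted genes from this region and the Il4 and Il13 region, 5 rose and 1 fell in tKO, with a median of 1.07, and 6 rose and 2 fell with DMOG, with a median of 1.20. In tKO 5 of the 9 fell at 2 against 0 ng/ml and 1 rose, where 10.4% of all genes fell. All genes had 13.9% higher and 13.3% lower in tKO over the doses, and 27.7% higher and 33.2% lower with DMOG.

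Around Il9 (chr13:56580637-56583607) only Smad5 of the 8 neighbours in the table was fitted, and it did not pass in tKO (-0.35 ± 0.18, adjusted p = 0.177). It had -0.45 ± 0.10 with DMOG. The nearest, Slc25a48, 6913 bp away, was at most 0.414 FPKM in tKO and at 0 in WT. Around Irf4 (chr13:30840473-30858849) Dusp22 rose by 0.66 ± 0.12 (limma, adjusted p = 0.00119) and Exoc2 by 0.68 ± 0.11 (adjusted p = 0.000369) in tKO. With DMOG Dusp22 rose by 0.80 ± 0.11, Uqcrfs1 by 0.91 ± 0.11, and Exoc2 did not pass (0.06 ± 0.11, adjusted p = 0.640).

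**Figure D5:**
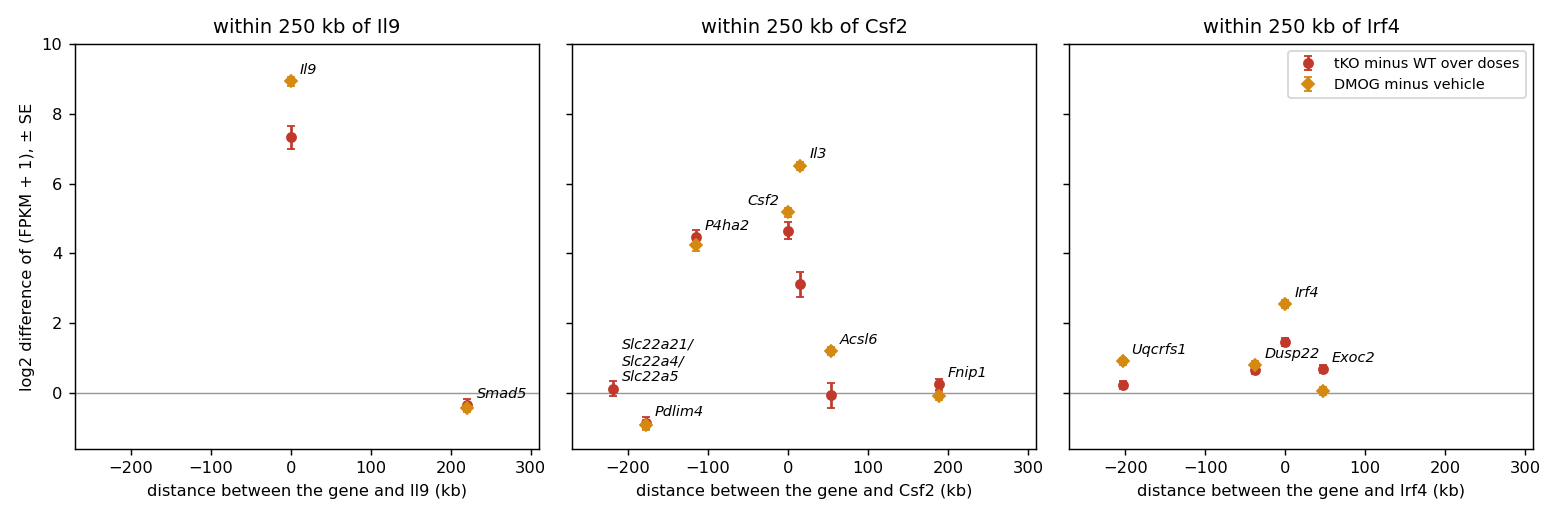
Log2 difference of (FPKM + 1) with ± SE for the fitted genes within 250 kb of Il9, Csf2 and Irf4, against their distance from that gene in kb, for tKO minus WT over the doses (circles) and DMOG minus vehicle (diamonds). P4ha2 (4.47) stands beside Csf2 (4.65) in tKO, while Smad5 and Pdlim4 lie below 0.

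The genes whose pattern over the 12 libraries of experiment 1 was most like each of the 4 are named as a description. Levels in tKO and WT did not overlap for most of these genes, but they did for Il3 and for the 2 joint entries named below. The 12 points thus largely share a split by genotype, so the coefficients of Pearson's r are measures of likeness with no test. For Il9 the nearest were the metallothionein genes Mt1 (r = 0.988) and Mt2 (r = 0.984), followed by Bnip3l, BC002163 and Fhl3, down to r = 0.971. For Csf2 they were Cysltr2 (r = 0.980), Sap30, Prkcdbp, Il1a and Nras. For Irf4 they were Hilpda (r = 0.994), Cdkn1a (r = 0.992), Arhgdig, Higd1a and Fam162a, and for Il3 the chemokine gene Ccl17 (r = 0.978), 2 joint entries of overlapping genes, Prkcdbp and Rgs2. Prkcdbp thus stood among the 5 nearest of both Il3 and Csf2. In experiment 2 Mt1, Mt2, Il1a, Hilpda and Cdkn1a were higher with DMOG by 4.40, 5.75, 5.23, 2.73 and 4.26 on the log2 scale, while BC002163, Fhl3 and Nras differed by 0.23, 0.27 and 0.31.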

How the data were processed

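RNA of 18 libraries was made into cDNA with a SMARTer Ultra low input kit, which does not mark strand, and sequenced on HiSeq instruments, per the labels' protocols. The authors deposited FPKM for every library in 1 table per experiment, per the file headers. Trimmomatic, TopHat, Cufflinks, Cuffdiff and mm9 are listed in the submitters' processing notes, with no version or role given in the sources used here. As the tables hold no counts, no count test was used and counting error is not given.

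Exact duplicate entries were dropped (18 of 34309 in experiment 1 and 291 of 23028 in experiment 2), as were 8482 entries without a symbol in experiment 1, and the other entries of a symbol were summed, giving 22783 and 16639 symbols. Log2(FPKM + 1) was fitted with limma 3.58.1 in R 4.3.3 for genes whose mean was 1 FPKM or more, with a mean-variance trend and 1 coefficient per group, so that all libraries of an experiment share the spread. Adjusted p-values are two-sided limma values with Benjamini-Hochberg adjustment over all 10354 or 9884 genes fitted, and 0.05 was the threshold. The code was tested on simulated data. Because each table has its own normalization, tests stay within a table. Values after ± are SE for log2 differences and SD for means.

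The 4 genes and the 8 lists (133 other genes) were chosen with earlier results of these data known. Beside the 4 genes, the rule names the 5 genes most like each by Pearson's r, genes within 250 kb, and up to 4 genes per list and comparison with the smallest p, whose values may then be given in other comparisons; exceptions are stated as such. A few listed genes are counted but not reported here by name. Promoter windows come from RefSeq (GRCm38.p6) and transcript starts from GENCODE M21. Alternatives were other pseudocounts, filters, scalings, entries per symbol, blocks and spreads, and leaving out libraries. To see whether replicate numbers pair samples, deviations from group means were correlated. In the tKO series every pair of doses was above 0.1 (r = 0.416, 0.127 and 0.110), and the labelled series as a block is given beside tKO results whose call it changes. The WT series (0.186, 0.0573 and 0.0899) and DMOG with vehicle (-0.142, -0.194 and 0.443) did not meet that limit. Libraries of different genotype with the same number ran from -0.106 to 0.255. The tKO values of 0.127 and 0.110 lie within that range, so these correlations alone leave the pairing of the tKO series uncertain. Y chromosome transcripts followed the tKO replicate number at every dose, so each tKO series shares at least the sex of the mouse.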

Additional observations from a re-analysis of the deposited data

Results flagged for a closer look

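The change of Csf2 with TGF-b on the log2 scale differed between the genotypes by a test of the difference itself, but WT started near the floor. Its change at 2 against 0 ng/ml was -3.18 ± 0.41 in tKO and -0.24 ± 0.41 in WT on the log2(FPKM + 1) scale, a difference of -2.94 ± 0.57 (limma, adjusted p = 0.0175). Both tKO libraries at 2 ng/ml, at 21.3 and 14.9 FPKM, lay below both tKO libraries without TGF-b, at 137 and 211 FPKM. The WT libraries lay between 0.384 and 2.71 FPKM at all doses, which left little room to fall. The test thus cannot tell a different response from the difference in starting level. The difference did not pass when 1 of the 6 libraries named above was left out or without the 3 libraries of tKO replicate 2 (-2.39, adjusted p = 0.224). No group had the 4 to 10 libraries that the screen for single outlying libraries needs.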

How the results depend on the processing

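FPKM keep no counts, so the limit set by depth is unknown, and values near or under 1 FPKM, such as those of Il9, Il3 and Csf2 in WT and vehicle libraries, weigh on the pseudocount chosen. In experiment 1, with 2 libraries per group, several calls between TGF-b doses depended on 1 library. The 4 DMOG differences kept direction and call, and the 4 tKO minus WT differences kept direction, under every alternative run. For other changes, given next, the cause was not tested. Omitting the 3 libraries of a tKO series was chosen after seeing the data.

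With a pseudocount of 0.1 FPKM the log2 difference was 8.85 for Il9 in tKO against WT over the doses, 5.04 for Il3 in tKO against WT over the doses, 5.35 for Csf2 in tKO against WT over the doses, -3.60 for Il3 in tKO at 2 against 0 (adjusted p = 0.0871), 3.82 for Il9 in WT at 2 against 0 (adjusted p = 0.0036), -5.52 for Il9 in the genotype difference of 2 against 0 (adjusted p = 0.015) and -2.88 for Csf2 in the genotype difference of 2 against 0 (adjusted p = 0.0998). With a pseudocount of 0.1 FPKM the number of genes passing was 17 for the genotype difference of 0.2 against 0. With the spread of the compared groups alone the log2 difference was 1.45 for Il9 in WT at 2 against 0 (adjusted p = 0.0268) and -3.14 for Il9 in the genotype difference of 2 against 0 (adjusted p = 0.0323). With the spread of the compared groups alone the number of genes passing was 631 for tKO against WT at 0.2, 27 for tKO at 0.2 against 0, 6 for tKO at 2 against 0.2, 81 for WT at 0.2 against 0, 0 for WT at 2 against 0.2, 10 for the genotype difference of 0.2 against 0 and 511 for the genotype difference of 2 against 0. With the labelled series as a replicate block the log2 difference was -1.69 for Il9 in tKO at 2 against 0 (adjusted p = 0.00255), 1.45 for Il9 in WT at 2 against 0 (adjusted p = 0.00737), -3.14 for Il9 in the genotype difference of 2 against 0 (adjusted p = 0.00195) and -3.03 for Il3 in the genotype difference of 2 against 0 (adjusted p = 0.0421). With the labelled series as a replicate block the number of genes passing was 413 for tKO at 0.2 against 0, 1542 for tKO at 2 against 0.2, 283 for WT at 0.2 against 0, 122 for WT at 2 against 0.2, 106 for the genotype difference of 0.2 against 0 and 686 for the genotype difference of 2 against 0. With no filter on low values the log2 difference was -2.96 for Il3 in tKO at 2 against 0 (adjusted p = 0.0522), -0.63 for Irf4 in tKO at 2 against 0 (adjusted p = 0.0891) and -2.94 for Csf2 in the genotype difference of 2 against 0 (adjusted p = 0.0991). With no filter on low values the number of genes passing was 366 for tKO at 2 against 0.2, 72 for WT at 0.2 against 0, 16 for the genotype difference of 0.2 against 0 and 157 for the genotype difference of 2 against 0. With no trend and robust moderation the log2 difference was -0.63 for Irf4 in tKO at 2 against 0 (adjusted p = 0.0929). With no trend and robust moderation the number of genes passing was 513 for tKO at 2 against 0.2, 105 for WT at 0.2 against 0, 5 for the genotype difference of 0.2 against 0 and 166 for the genotype difference of 2 against 0. With a filter at 5 FPKM the log2 difference was -1.69 for Il9 in tKO at 2 against 0 (adjusted p = 0.045) and -3.14 for Il9 in the genotype difference of 2 against 0 (adjusted p = 0.0464). With the replicate number as a replicate block the log2 difference was -1.69 for Il9 in tKO at 2 against 0 (adjusted p = 0.0243) and -3.14 for Il9 in the genotype difference of 2 against 0 (adjusted p = 0.0224). With the replicate number as a replicate block the number of genes passing was 73 for WT at 2 against 0.2, 80 for the genotype difference of 0.2 against 0 and 512 for the genotype difference of 2 against 0. With quantile normalization the log2 difference was -0.27 for Irf4 in tKO at 2 against 0 (adjusted p = 0.334), -2.68 for Il9 in the genotype difference of 2 against 0 (adjusted p = 0.0431) and 0.039 for Irf4 in the genotype difference of 2 against 0 (adjusted p = 0.951). With quantile normalization the number of genes passing was 83 for WT at 2 against 0.2. With median ratio scaling the log2 difference was -0.58 for Irf4 in tKO at 2 against 0 (adjusted p = 0.0583). With the highest entry per symbol the log2 difference was -0.47 for Irf4 in tKO at 2 against 0 (adjusted p = 0.0758) and 0.037 for Irf4 in the genotype difference of 2 against 0 (adjusted p = 0.952). With a pseudocount of 0.5 FPKM the log2 difference was 2.10 for Il9 in WT at 2 against 0 (adjusted p = 0.0315) and -3.80 for Il9 in the genotype difference of 2 against 0 (adjusted p = 0.0341).

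Leaving out libraries (each one, and the 3 of a tKO series), the number passing ran from 512 to 1255 for tKO against WT at 0, 777 to 2693 for tKO against WT at 0.2, 725 to 2166 for tKO against WT at 2, 50 to 718 for tKO at 0.2 against 0, 9 to 2388 for tKO at 2 against 0.2. Likewise, the number ran from 384 to 2404 for tKO at 2 against 0, 31 to 259 for WT at 0.2 against 0, 8 to 138 for WT at 2 against 0.2, 660 to 2115 for WT at 2 against 0, 1 to 116 for the genotype difference of 0.2 against 0. Likewise, the number ran from 78 to 773 for the genotype difference of 2 against 0. Member differences ran over the same omissions from -0.52 to 1.27 for Il9 in tKO at 0.2 against 0, -0.20 to 0.14 for Irf4 in tKO at 0.2 against 0, -2.59 to -0.80 for Il9 in tKO at 2 against 0, -4.60 to -1.32 for Il3 in tKO at 2 against 0, -3.74 to -2.63 for Csf2 in tKO at 2 against 0. Other differences ran from -0.86 to -0.39 for Irf4 in tKO at 2 against 0, -0.52 to 0.29 for Il3 in WT at 0.2 against 0, -1.05 to 0.37 for Csf2 in WT at 0.2 against 0, -0.29 to 0.67 for Il3 in WT at 2 against 0.2, -0.61 to 0.81 for Csf2 in WT at 2 against 0.2. Other differences ran from -0.35 to 0.19 for Irf4 in WT at 2 against 0.2, 1.08 to 1.82 for Il9 in WT at 2 against 0, -0.41 to 0.55 for Il3 in WT at 2 against 0, -1.41 to 0.38 for Il9 in the genotype difference of 0.2 against 0, -4.04 to -2.25 for Il9 in the genotype difference of 2 against 0. Other differences ran from -4.67 to -1.39 for Il3 in the genotype difference of 2 against 0, -3.49 to -2.39 for Csf2 in the genotype difference of 2 against 0.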
